A study of Caenorhabditis elegans with 16 samples.

Results

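Whole-worm RNA of the Caenorhabditis elegans strain cua-1(H828Q), grown without added copper, was compared with that of control worms grown the same way. The comparison used the 4 untreated mutant and 4 untreated control libraries of a series of 16. The other 8 came from the same genotypes on 100 µM copper. They entered here in the choice of tested genes, the scaling, a length correction and the measure of spread, not in the compared means. Worms of both groups were synchronised, fed Escherichia coli OP50 on agar plates for 3 days at 20 °C, frozen, ground and extracted, so each library mixes every tissue with germline and embryos. The mutant carries the H828Q change in the endogenous cua-1 gene; the labels name no tissue-specific driver and no second allele. They do not name the control strain, so genotype and strain background cannot be told apart. Of 46904 genes in the deposited table, 9787 had enough counts to be tested. In bulk RNA, fewer cells of a type and less RNA per cell cannot be told apart, and this holds for every tissue gene below.

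The cua-1 gene encodes the worm's copper-transporting P-type ATPase, the counterpart of human ATP7A and ATP7B. Such pumps take copper from the small chaperone CUC-1, load it into enzymes made in the secretory pathway and move surplus copper out of the cytosol. In people, loss of ATP7B causes Wilson disease, in which copper builds up in the liver. The worm intestine does much of the work of a liver: it stores fat, makes yolk, secretes digestive proteases and antimicrobial proteins, and detoxifies. Metallothioneins, small cysteine-rich proteins that bind zinc, cadmium and copper, are made there.

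The 8 libraries held 3969132, 3894971, 3124207 and 3360248 counts in mutant replicates 1 to 4, and 3348080, 2588653, 2859757 and 2339604 counts in control replicates 1 to 4. A floor of 3 counts equalled 0.661 to 0.780 normalised CPM (each count scaled to a common library size with TMM factors) in mutant libraries and 0.934 to 1.69 CPM in control libraries. The labels call the samples biological replicates and say nothing more of how cultures were kept apart, so p-values measure the spread between these samples.

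Libraries differed in how well long transcripts were represented. Length balance is the median log2 CPM of the 1187 tested genes over 3000 bp minus that of the 2179 tested genes under 800 bp. It was 1.05, 0.69, 0.62 and 0.76 in mutant replicates 1 to 4. In the control it was -2.12, 0.61, -0.93 and -0.60. The mutant libraries lay close together, while control replicates 1, 3 and 4 were poor in long transcripts and control replicate 2 resembled the mutant. The mean was 0.78 ± 0.19 in the mutant and -0.76 ± 1.12 in the control (SD, n = 4 each). The difference of 1.54 gave an exact two-sided permutation p of 0.0286, the smallest that 4 against 4 allows, and the lowest mutant library (0.615) and the highest control library (0.614) nearly met. With limits of 2500 and 1000 bp the difference was 1.24 (exact permutation p = 0.0857). Libraries with a balance under -0.5 are called long-depleted here, a limit taken from an earlier analysis of these data. They were 3 of the 4 control libraries and 0 of the 4 mutant libraries, with 2 more among the copper samples. Length balance and genotype can therefore hardly be told apart, and what set the balance was not tested.

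**Figure D1:**
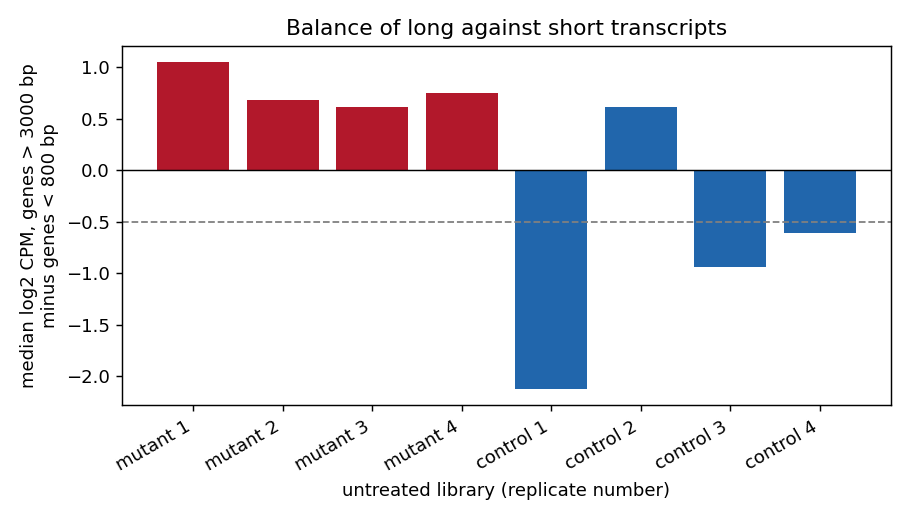
Length balance (median log2 CPM of long genes minus that of short genes) in each untreated library, mutant replicates on the left and control replicates on the right, with a dashed line at -0.5. The 4 mutant bars stand at 0.62 to 1.05, control replicate 2 at 0.61, and control replicates 1, 3 and 4 at -2.12, -0.93 and -0.60.

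The edgeR quasi-likelihood fit called 2141 genes at a Benjamini-Hochberg adjusted p under 0.05: 919 were higher in the mutant (9.39% of genes tested) and 1222 lower (12.5%). Of all genes tested, 1605 (16.4%) were higher in each mutant library than in any control library, and 1214 (12.4%) were lower, called or not. Fold changes followed transcript length. The median log2 fold change was -0.64 among genes of up to 600 bp and 1.33 among genes over 5000 bp, against 0.00 over all genes. Offsets that remove each library's trend on length left 989 genes higher (10.1%) and 1595 lower (16.3%), with the length classes between -0.19 and 0.11; the offsets moved the median of all genes to -0.10. Without the 5 long-depleted libraries, which leaves control replicate 2 as the sole untreated control, 1089 genes were higher (11.1%) and 627 lower (6.41%). There the lone control takes its spread from the remaining groups, an assumption. The 3 fits shared 857 calls in the same direction, 502 higher and 355 lower. Leaving out 1 untreated mutant library gave 743, 772, 918 or 750 calls (replicates 1 to 4), and leaving out control replicates 1, 2, 3 or 4 gave 830, 3809, 873 or 1841. Without copper-treated mutant replicate 4, a long-depleted library, 3265 genes were called.

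**Figure D2:**
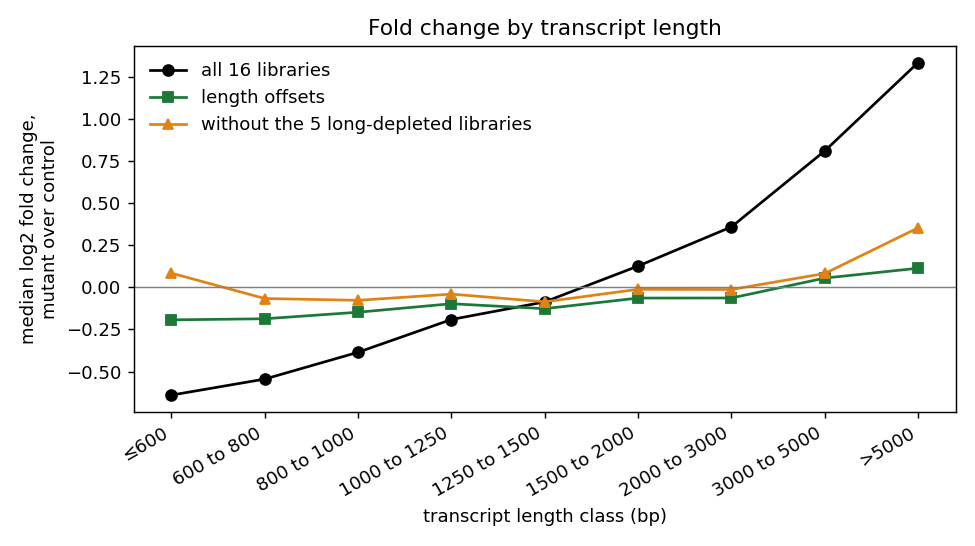
Median log2 fold change (mutant over control) of tested genes in 9 classes of transcript length, in the fit of all 16 libraries, with length offsets, and without the 5 long-depleted libraries. The first line climbs to 1.33 in the longest class, while the other 2 stay between -0.19 and 0.35.

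Because of this dependence, the text leads with genes whose call stayed in the same direction in each of 28 other fits that tested them. These fits changed the scaling, the filter, the tool, the block or the length correction, or left out the long-depleted libraries or 1 library. A test against a minimum fold was not among them. The call held for 354 genes, 244 higher (2.49% of genes tested) and 110 lower (1.12%). Their median log2 fold change was 2.05 among the higher and -1.91 among the lower, and their median transcript length was 1247 bp and 922 bp, against 1375 bp over all genes tested. Control replicate 2, the control library with a normal length balance, lay beyond all 4 mutant libraries on the control side for each of the 354, which the fit without the long-depleted libraries in part requires. Control replicate 4 was the control nearest to the mutant for 67 of the 110 lower genes and 117 of the 244 higher genes. Calls below held in all 28 fits unless a loss is named. Counts of called members of a gene list stand beside shares of 9.39% higher and 12.5% lower over all genes in the fit of all libraries. Sizes moved as well. Of 107 named genes that were called, tyr-1 not counted, 26 had a log2 fold change smaller by over 1.5 times without the long-depleted libraries. In 12 it was larger by that much. With the length offsets the numbers were 15 and 1. Many named genes were picked for steady calls or after their values were seen, so they do not show how steady calls are. Over all genes tested 354 of 2141 calls held.

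The targeted gene is given first. The deposited counts placed cua-1 (III:13439730-13455307, WBcel235) at 36.8, 20.1, 32.8 and 27.5 CPM in the mutant and 5.05, 22.1, 8.82 and 11.2 CPM in the control. Mutant replicate 2 lay below control replicate 2, so the groups overlapped. Its log2 fold change was 1.29 ± 0.43 (SE; adjusted p = 0.0429), a call lost in 16 of the 28 fits, among them the length offsets (0.49, adjusted p = 0.123) and the fit without the long-depleted libraries (0.35, adjusted p = 0.44). Leaving out each untreated library other than control replicate 2 also ended it (adjusted p = 0.0592 to 0.12), as did leaving out copper-treated control replicates 2, 3 or 4 or copper-treated mutant replicates 1 or 2 (adjusted p = 0.0508 to 0.0560), with the log2 fold change at 1.28 to 1.29 without any of these copper libraries and at 1.03 to 1.43 without 1 of these untreated ones. The transcript is 3955 bp long, among the classes that length balance moves most. A missense change cannot be seen in these counts, so the level of cua-1 does not check the genotype.

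The metallothionein gene mtl-2 fell in the mutant. It stood at 16.8, 14.7, 11.7 and 20.6 CPM in the mutant and at 179, 43.0, 98.8 and 35.4 CPM in the control, with no overlap. The log2 fold change was -2.48 ± 0.50 (adjusted p = 0.00601) and -1.48 without the long-depleted libraries, so the size depends on which controls are used. Its relative mtl-1 was too low to test, with 0 counts in the 4 mutant libraries and 14 in the 4 control libraries. With a floor of 3 counts set for the mutant group, the control level of mtl-1 was 8.25-fold above it. This takes the control counts as exact and leaves out the spread between libraries. The tyrosinase gene tyr-4, of a family of copper enzymes, rose: it had 54, 58.7, 57.7 and 64.6 CPM in the mutant and 22.5, 23.4, 31.7 and 22.5 CPM in the control. Its change was 1.23 ± 0.21 (adjusted p = 0.00227), and 0.77 with the length offsets.

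The other copper genes gave calls that depended on the libraries. The copper chaperone gene cuc-1 changed by -1.06 ± 0.34 (adjusted p = 0.0376), with 35.1, 40.2, 40.8 and 34.8 CPM in the mutant and 130, 50.8, 76.7 and 56.7 CPM in the control. It lost the call in 10 fits, among them those without control replicates 1 or 3 (adjusted p = 0.143 and 0.0709), without any 1 mutant library (adjusted p = 0.0701 to 0.0884) and without the long-depleted libraries (-0.48, adjusted p = 0.11). The copper-zinc superoxide dismutase gene sod-1 changed by -1.01 ± 0.34 (adjusted p = 0.0441) and lost the call in 17 fits. It did so without control replicates 1, 3 or 4 (adjusted p = 0.146, 0.086 and 0.0548), without any 1 mutant library (adjusted p = 0.0699 to 0.104), without copper-treated control replicates 2, 3 or 4 or copper-treated mutant replicate 1 (adjusted p = 0.0502 to 0.0518), and without the long-depleted libraries (-0.35, adjusted p = 0.142). For chca-1, a copper importer gene of the CTR family, the value was -0.12 ± 0.39 (adjusted p = 0.825). Of the 14 tested genes of copper pumps, chaperones and copper enzymes, 2 were called higher and 4 lower (median -0.51, against 0.00 over all genes), and 1 and 0 without the long-depleted libraries. Of 9 genes of the CTR family of copper importers, 1 was higher and 3 lower, and 2 and 0 without those libraries. Among 19 genes of the metallothionein, cadmium and zinc response, 0 were higher and 5 lower (median -0.33), but 1 and 2 without the long-depleted libraries (median 0.02).

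The long non-coding RNA tts-1 gave the largest fall among the named genes, and the fasting genes acs-2 and icl-1 fell with it. Located at X:1504131-1504841 and known from long-lived mutants and from dauers, the arrested larval stage, tts-1 had 4.63, 7.46, 1.56 and 2.57 CPM in the mutant and 1009, 272, 1295 and 98.3 CPM in the control. All 4 control libraries lay far above the highest mutant library, though they spread widely among themselves. Its fold change was -7.34 ± 0.74 on the log2 scale (adjusted p = 0.000152), and -6.07 without the long-depleted libraries. The fatty acyl-CoA synthetase gene acs-2, a fasting gene of mitochondrial fat oxidation, had 2.65, 1.81, 1.30 and 1.80 CPM in the mutant and 37.6, 20.2, 39.2 and 6.74 CPM in the control. The glyoxylate cycle gene icl-1, which lets worms turn stored fat into sugar, had 26.2, 24.4, 20.3 and 16.5 CPM in the mutant and 237, 145, 357 and 36.0 CPM in the control (-3.15 ± 0.47, adjusted p = 0.00107). In all 3 genes control replicate 4 was the lowest control, still above every mutant library. An alcohol dehydrogenase gene, adh-1, named after its values were seen, fell by 3.07 ± 0.47.

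The wider list of fasting, fat breakdown and glyoxylate genes did not move as one. Of 41 tested members 3 were higher and 9 lower (median -0.13); 4 were higher and 5 lower without the long-depleted libraries. The calls that held in all 28 fits were acs-2, icl-1 and the acyl-CoA dehydrogenase gene acdh-7 on the lower side, and acdh-8, of the same enzyme family, on the higher side. The acdh-7 gene had 52.9, 67.3, 63.2 and 68.0 CPM in the mutant and 200, 104, 156 and 106 CPM in the control (-1.17 ± 0.25, and -0.78 without the long-depleted libraries). The acdh-8 gene had 24.3, 11.5, 14 and 23.9 CPM in the mutant and 2.30, 2.49, 5.73 and 3.93 CPM in the control (2.36 ± 0.42). These relatives moved in opposite directions, and in both no control library reached the mutant range.

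Several genes that make particular lipids rose in the mutant. The acyl-CoA synthetase gene acs-1 and the elongase gene elo-5 serve the synthesis of branched-chain fatty acids. The acs-1 gene had 80.3, 86.8, 99.6 and 81.9 CPM in the mutant and 14.2, 23.4, 14.5 and 50.6 CPM in the control (1.77 ± 0.37, adjusted p = 0.0076). For elo-5 there were 226, 314, 322 and 286 CPM in the mutant and 48.2, 40.2, 29.1 and 179 CPM in the control (1.96 ± 0.44, adjusted p = 0.0104), a call lost with length balance as a covariate (adjusted p = 0.0991). Control replicate 4 stood apart from the other controls, toward the mutant, in both genes. The acetoacetyl-CoA synthetase gene sur-5, named after its values were seen, showed the same order, with 53.4, 53.5, 59.8 and 45.8 CPM in the mutant and 2.30, 10.6, 9.26 and 33.1 CPM in the control (1.97 ± 0.46). Of 20 tested genes of fatty acid synthesis, desaturation and elongation, 5 were higher and 0 lower (median 0.00), and 8 and 1 without the long-depleted libraries. The desaturase gene fat-7 was not called (-0.78 ± 0.29, adjusted p = 0.0629), and its sign turned without those libraries (0.42).

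Phosphatidylcholine synthesis gave 2 further calls. The S-adenosylmethionine synthetase gene sams-1, which supplies methyl groups for this lipid, had 366, 367, 361 and 313 CPM in the mutant and 140, 135, 144 and 290 CPM in the control (0.99 ± 0.24, adjusted p = 0.0138). The length offsets ended the call (adjusted p = 0.0532). The pcyt-1 gene, for the CTP-dependent step of the choline branch, had 40.3, 33.9, 36.7 and 42.7 CPM in the mutant and 5.51, 10.6, 5.29 and 27.5 CPM in the control (1.68 ± 0.43, adjusted p = 0.0175); it lost the call without control replicate 3 (adjusted p = 0.052). Again replicate 4 was the highest control in both. Of 18 tested genes of the methionine cycle and phosphocholine synthesis, 3 were higher and 0 lower (median 0.21), and 8 and 1 without the long-depleted libraries. Outside these lists and named after their values were seen, the lysine breakdown gene aass-1 rose by 1.87 ± 0.31 (1.13 with the length offsets) and the glycine decarboxylase gene gldc-1 by 1.52 ± 0.36 (0.86 with the offsets).

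Secreted gut proteases fell. The cathepsin B-like protease gene cpr-1 had 168, 178, 139 and 198 CPM in the mutant and 1741, 563, 1685 and 473 CPM in the control (-2.71 ± 0.37, adjusted p = 0.000663; -1.77 without the long-depleted libraries). Its relative cpr-4 had 161, 174, 179 and 157 CPM in the mutant and 1294, 573, 1440 and 378 CPM in the control (-2.46 ± 0.34). The groups did not overlap in either gene, and replicate 4 was the lowest control. Of the 8 tested cpr genes, 6 were lower and 0 higher (median -1.24), and 4 and 0 without the long-depleted libraries. The aspartyl protease genes asp-12 and asp-5 lie beside each other on chromosome V (8269210-8272056 and 8272385-8274044), and both fell. For asp-12 the levels were 27.3, 29.4, 28.9 and 39.6 CPM in the mutant and 161, 107, 165 and 65.7 CPM in the control (-1.99 ± 0.26). For asp-5 the change was -1.35 ± 0.31, and -0.41 without the long-depleted libraries (adjusted p = 0.0498). Of 11 tested aspartyl protease genes, 7 were lower and 1 higher (median -1.08), and 4 and 1 without those libraries. Over 8 intestine markers the summed level was 2990 to 3553 CPM in the mutant and 3803 to 14759 CPM in the control. Of these markers 1 was called higher and 1 lower, and none was at 0. Their median log2 fold change was -0.16, and 0.21 without the long-depleted libraries. The marker list includes asp-1, itself an aspartyl protease gene, so the sum is not separate from the protease falls. What part the level of intestine RNA had in these falls was not tested.

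Antimicrobial effectors split by family. The lysozyme genes lys-4, lys-5 and lys-6 form a tandem group on chromosome IV (11621429 to 11627947), and all 3 fell. The lys-4 gene had 210, 244, 249 and 219 CPM in the mutant and 1320, 450, 920 and 394 CPM in the control (-1.74 ± 0.32). The changes of lys-5 and lys-6 were -2.68 ± 0.50 and -1.89 ± 0.36. Without the long-depleted libraries the 3 genes stood at -1.01, -1.64 and -1.16. Of 8 tested lysozyme genes 4 were lower and 0 higher (median -0.75), and 3 and 0 without the long-depleted libraries. Reads of such near copies may have been split in the counting. Of 16 tested saposin-like genes, whose products open pores in bacterial membranes, 10 were lower and 0 higher (median -1.16). Without the long-depleted libraries 3 were lower and 1 higher; spp-2 (-3.15 ± 0.61) and spp-18 (-2.59 ± 0.44, and -1.40 without those libraries) held.

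Among caenacins, fungus-induced peptides and related small secreted peptides, 5 were higher and 8 lower of 32 tested (median 0.15), and 11 and 7 without the long-depleted libraries. The caenacin gene cnc-4 fell, with 1.54, 3.16, 1.30 and 3.09 CPM in the mutant and 28.9, 18.1, 32.2 and 7.30 CPM in the control (-3.23 ± 0.44, adjusted p = 0.000663). In the other direction, 4 single genes of fungus-induced peptides rose. The fip-2 gene, named like fipr-21 after its values were seen, had 128, 132, 121 and 141 CPM in the mutant and 54.2, 23.4, 37.9 and 79.2 CPM in the control (1.43 ± 0.29, adjusted p = 0.00618), and fipr-2, fipr-5 and fipr-21 rose by 1.57 ± 0.37, 2.02 ± 0.49 and 0.95 ± 0.24. Of these, fip-2, fipr-5 and fipr-21 stood at 2.43, 4.29 and 1.54 without the long-depleted libraries. Genes named for their regulation by the insulin-pathway factor DAF-16 also split: dod-3 fell by 4.66 ± 0.82 and dod-23 by 1.72 ± 0.28, while dod-6 rose by 1.31 ± 0.26 and dod-19 by 1.23 ± 0.25. Values of -0.91 for dod-23 and 2.07 for dod-6 were found without the long-depleted libraries. Of 58 tested C-type lectin genes, 8 were higher and 12 lower (median -0.52), and 7 and 4 without the long-depleted libraries.

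The UDP-glucuronosyltransferases, which attach sugars to lipophilic compounds for excretion, gave calls on the higher side and 0 on the lower side in each of 3 fits. Of 28 tested genes 10 were higher and 0 lower (median 1.02). The counts were 9 and 0 with the length offsets (median 0.84), and 11 and 0 without the long-depleted libraries (median 0.79). The ugt-12 gene had 12.3, 11.7, 14.3 and 12.9 CPM in the mutant and 4.13, 3.74, 3.97 and 3.37 CPM in the control (1.74 ± 0.27, adjusted p = 0.00162). All 8 libraries lay tightly within their group. The ugt-63 gene rose by 2.30 ± 0.43, and by 3.49 without the long-depleted libraries. For ugt-41 there were 78 counts in the mutant and 2 in the control, a ratio of 22.1 with an exact 95% counting interval of 5.90 to 185. The other families were mixed: of 19 cytochrome P450 genes 2 were higher and 6 lower, and of 25 glutathione S-transferase genes 0 were higher and 2 lower, but 9 and 1 without the long-depleted libraries. The oxidative stress reporter gst-4 was not called (0.89 ± 0.48, adjusted p = 0.169), and reached adjusted p = 0.0351 without those libraries.

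Single genes of gut granules, proton pumps and autophagy moved in both directions. The half-transporter gene haf-9, whose product sits in the lysosome-related gut granules, had 17.4, 25.8, 27.8 and 21.6 CPM in the mutant and 7.34, 2.80, 5.73 and 12.4 CPM in the control (1.75 ± 0.37, adjusted p = 0.0069), with 1.16 under the length offsets and 2.98 without the long-depleted libraries. The vacuolar proton pump subunit gene vha-5 had 63.9, 54.7, 55.9 and 61.8 CPM in the mutant and 12.9, 24.3, 26.9 and 23.6 CPM in the control (1.43 ± 0.31, and 0.78 with the length offsets). The nuclear receptor gene nhr-31, known to act on proton pump genes in the excretory cell, had 24.9, 23.7, 20.0 and 19.6 CPM in the mutant and 4.13, 4.36, 4.41 and 10.7 CPM in the control (1.94 ± 0.31, adjusted p = 0.00167). On the lower side, sqst-1, the p62 cargo receptor, had 7.06, 5.87, 6.24 and 5.66 CPM in the mutant and 18.8, 18.1, 26.9 and 21.3 CPM in the control (-1.77 ± 0.26, adjusted p = 0.00102). The LC3 homolog gene lgg-2 fell by 1.28 ± 0.23, and epg-9, a subunit of the starter kinase complex named after its values were seen, by 1.70 ± 0.33. Of 46 tested genes of autophagy and the vacuolar pump, 2 were higher and 8 lower (median -0.08), or 4.35% and 17.4% beside 9.39% and 12.5% of all genes, and 6 and 6 without the long-depleted libraries. Another nuclear receptor gene, nhr-71, fell by 1.30 ± 0.26.

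**Figure D3:**
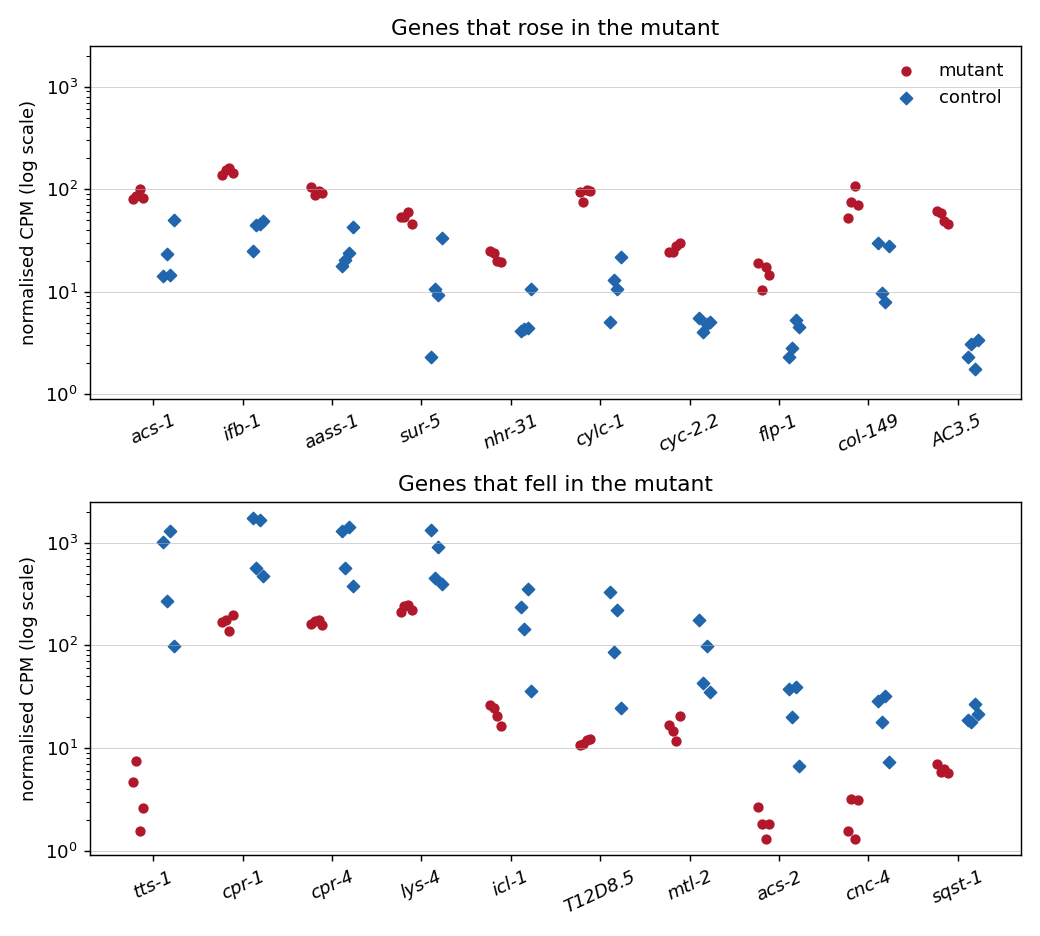
Normalised CPM on a log scale of 10 genes that rose and 10 that fell, with mutant libraries as circles on the left of each gene and control libraries as diamonds on the right. The genes were picked from called genes with their values known, so groups that are apart in all 20 are no separate result. For acs-1, sur-5 and icl-1 control replicate 4 (50.6, 33.1 and 36.0 CPM) is the control nearest to the mutant.

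Many sperm genes rose in the mutant and some oocyte genes fell. Hermaphrodites make sperm first and oocytes after, so both kinds of RNA are present in adults of this age. Summed over 6 sperm markers the level was 184 to 205 CPM in the mutant and 41.7 to 149 CPM in the control; over 8 oocyte markers it was 4481 to 4910 CPM in the mutant and 6676 to 9169 CPM in the control. None of these markers was at 0. The paternal-effect sperm gene spe-11, named like gsp-3 after its values were seen, had 35.1, 21.9, 27 and 29.4 CPM in the mutant and 0, 5.92, 4.41 and 8.99 CPM in the control (2.56 ± 0.56, adjusted p = 0.00937). The sperm phosphatase gene gsp-3 had 30.6, 19.2, 26 and 31.7 CPM in the mutant and 2.75, 5.61, 14.5 and 13.5 CPM in the control (1.58 ± 0.38). In both genes every mutant library lay above every control library. Of 40 tested genes of small sperm peptides and sperm-specific proteins, 17 were higher and 0 lower (median 0.78), 25 and 0 with the length offsets (median 1.21), and 29 and 0 without the long-depleted libraries (median 1.67). Examples were nspd-6 (1.51 ± 0.29), nspd-10 (1.39 ± 0.29), ssq-2 (1.25 ± 0.30) and ssq-4 (1.15 ± 0.27), which belong to families of near copies. Without the long-depleted libraries nspd-6, ssq-2 and ssq-4 stood at 2.42, 2.26 and 1.99. Named after their values were seen, smz-1 rose by 1.71 ± 0.30, the testis-type cytochrome c gene cyc-2.2 by 2.45 ± 0.38 and cylc-1 by 2.85 ± 0.50.

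Major sperm proteins, the motility proteins of nematode sperm, showed how far the choice of controls matters. Of 28 tested genes 2 were higher and 0 lower (median 0.59), while 27 and 0 were called both with the length offsets (median 1.08) and without the long-depleted libraries (median 1.85). One of them, msp-78, had 70.3, 94.0, 78.5 and 89.6 CPM in the mutant and 44.1, 20.9, 49.8 and 56.2 CPM in the control (0.97 ± 0.32, adjusted p = 0.0436). Every mutant library lay above every control library. The call was lost in 12 fits, among them those without any 1 of the 4 mutant libraries (adjusted p = 0.0723 to 0.0969), without control replicates 1, 2 or 3 (adjusted p = 0.0881, 0.0631 and 0.0713) and without copper-treated control replicates 2 or 3 or copper-treated mutant replicate 1 (adjusted p = 0.051 to 0.0547). These transcripts are short (median 384 bp), and control replicate 2 was the lowest control.

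On the oocyte side, the eggshell proteoglycan gene cpg-8 had 167, 118, 127 and 141.9 CPM in the mutant and 976, 242, 499 and 340 CPM in the control (-1.89 ± 0.45, adjusted p = 0.0138); it was -0.86 without the long-depleted libraries and -0.68 with length balance as a covariate. Of 22 tested eggshell genes 1 was higher and 7 lower (median -0.53), and 1 and 11 without the long-depleted libraries. The fall of the eggshell permeability barrier gene perm-2 (-1.31 ± 0.33, and -0.63 without the long-depleted libraries) was lost without control replicate 1 (adjusted p = 0.0539) and that of the eggshell chondroitin proteoglycan gene cpg-2 (-1.02 ± 0.26) without mutant replicate 4 (adjusted p = 0.0562). Of 25 tested RNA-binding genes of oocytes and early embryos, 1 was higher and 8 lower (median -0.50), and 1 and 9 without the long-depleted libraries. Here the translational repressor gene puf-5 had 453, 552, 562 and 535 CPM in the mutant and 820, 934, 968 and 863 CPM in the control (-0.77 ± 0.20, adjusted p = 0.0167), a call lost without mutant replicate 1 (adjusted p = 0.0567) and with the replicate block over 8 libraries (adjusted p = 0.0796). The maternal Wnt gene mom-2 (-1.15 ± 0.28) and the meiotic spindle gene mesp-1 (-1.46 ± 0.35), named after their values were seen, fell in all 28 fits, down to -0.58 and -0.65 with the covariate.

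Yolk genes gave no call. Of 6 vitellogenin genes, which the intestine expresses to provision oocytes, 0 were called (median 0.00); 6 were lower with the length offsets and 1 without the long-depleted libraries. The vit-2 gene had 3354, 3741, 3499 and 3490 CPM in the mutant and 3166, 4820, 5641 and 4061 CPM in the control (-0.33 ± 0.30, adjusted p = 0.408). These transcripts have a median length of 4935 bp, and the long-depleted control replicates 3 and 4 held more vit-2 CPM than the mean of the mutant. With the length offsets the value was -1.57 (adjusted p = 0.00289), and without the long-depleted libraries it was -0.50 (adjusted p = 0.00474).

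Some genes of dividing cells fell. Of 53 tested genes of DNA replication and the cell cycle, 0 were higher and 12 lower (median -0.28); 16 were lower with the length offsets and 13 without the long-depleted libraries. The replicative helicase gene mcm-4 had 66.6, 80.2, 81.1 and 83.7 CPM in the mutant and 131, 118, 178 and 130 CPM in the control (-0.84 ± 0.19, adjusted p = 0.0122; -1.44 with the length offsets), a call lost with the replicate block over 8 libraries (adjusted p = 0.0693). The replication inhibitor geminin, gmn-1, named after its values were seen, fell by 1.83 ± 0.39. Of 35 tested histone genes 1 was higher and 23 lower (median -1.25), and 2 and 10 without the long-depleted libraries. The linker histone genes hil-3 (-2.33 ± 0.47) and his-24 (-1.53 ± 0.33, named after its values were seen) and the H2A genes his-61 (-1.79 ± 0.37) and his-47 (-1.80 ± 0.39) held, the last pair at -0.86 and -1.02 without the long-depleted libraries. Core histone copies are near-identical and mostly lack the poly(A) tail on which 3′ libraries rely. Over 7 germline markers the summed level was 2088 to 2150 CPM in the mutant and 2424 to 2901 CPM in the control.

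Collagens of the cuticle changed individually. The col-81 gene, with 2315, 2610, 2714 and 2716 CPM in the mutant and 1550, 535, 997 and 1432 CPM in the control, rose by 1.20 ± 0.29 (adjusted p = 0.0138; 2.22 without the long-depleted libraries), and col-149 rose by 2.03 ± 0.42. In the other direction col-95 had 53.6, 55.4, 58.5 and 56.1 CPM in the mutant and 378, 83.2, 272 and 239 CPM in the control (-2.12 ± 0.38, adjusted p = 0.0027). It was -0.62 without the long-depleted libraries and -1.19 with length balance as a covariate. The body shape collagen gene dpy-17 had 1.10, 1.36, 1.04 and 1.54 CPM in the mutant and 2.75, 30.2, 14.5 and 4.49 CPM in the control (-3.37 ± 0.60), with control replicate 2 highest. A second body shape collagen gene, sqt-3, fell by 1.85 ± 0.44. Of 88 tested col genes 4 were higher and 3 lower (median -0.41), but 37 and 7 without the long-depleted libraries (median 0.86). Hypodermis markers summed to 2130 to 2681 CPM in the mutant and 1326 to 3775 CPM in the control, with control replicate 2 lowest, and their part in the collagen counts was not tested.

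Several muscle and filament genes rose. Pharynx markers had 3 of 5 genes called higher. The troponin I genes tni-1 of body muscle and tni-4 of the pharynx rose by 1.13 ± 0.27 and 0.97 ± 0.23; tni-4, of the pharynx list, had 52.0, 54.4, 38.7 and 58.4 CPM in the mutant and 17.0, 26.8, 27.3 and 32.6 CPM in the control. The intermediate filament gene ifb-1, of epidermis and excretory cell, had 139, 153, 161 and 142.4 CPM in the mutant and 25.2, 45.2, 45.4 and 49.4 CPM in the control (1.85 ± 0.29, adjusted p = 0.00162), and its partner ifa-1 rose by 1.26 ± 0.22; both were named after their values were seen. The transcript of the calcium release channel gene itr-1, also named afterwards, is 8906 bp long, with 43.0, 29.1, 25 and 27.3 CPM in the mutant and 1.84, 4.05, 1.76 and 2.25 CPM in the control (3.58 ± 0.62); the length offsets reduced the change to 1.99. Of 38 tested thin and thick filament genes 10 were higher and 6 lower (median 0.26), and 13 and 0 without the long-depleted libraries. The giant kinase gene unc-22 changed by 3.78 ± 0.72 and lost the call without those libraries (2.48, adjusted p = 0.0982). Body wall muscle markers did not separate the groups (2755 to 2996 CPM in the mutant and 1865 to 3725 CPM in the control).

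The lists of extracellular matrix and giant cytoskeletal genes had fewer higher calls with the length offsets. Of 19 tested basement membrane and hemicentin genes 8 were higher and 0 lower (median 1.64), but 4 were higher and 3 lower with the length offsets (median 0.43). The hemicentin gene him-4, of 15853 bp, had 11.2, 5.87, 8.58 and 13.6 CPM in the mutant and 0.459, 0.311, 0 and 1.12 CPM in the control. It rose by 4.40 ± 0.83 (adjusted p = 0.00393), or 2.33 with the offsets. For perlecan, unc-52, there were 93.3, 102, 101 and 94.7 CPM in the mutant and 20.7, 29.3, 27.8 and 47.7 CPM in the control (1.64 ± 0.27, adjusted p = 0.00205); with the offsets the sign turned (-0.59, adjusted p = 0.45), and without the long-depleted libraries it was 1.69. Control replicate 2, with a length balance like that of the mutant, held 29.3 CPM of it. Of 36 tested genes of kinesins, dynein and giant cytoskeletal proteins, 13 were higher and 3 lower (median 1.58), and 4 and 7 with the offsets.

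Few neuronal genes held. The neuropeptide gene flp-1 had 19, 10.4, 17.4 and 14.7 CPM in the mutant and 2.30, 2.80, 5.29 and 4.49 CPM in the control (2.05 ± 0.33, adjusted p = 0.00167). Of 28 tested FMRFamide-like peptide genes 3 were higher and 1 lower (10.7% and 3.57%, median -0.31), beside 9.39% and 12.5% of all genes. Among 57 neuropeptide-like and insulin-like peptide genes 1 was higher and 10 lower (1.75% and 17.5%, median -0.48). Both counts are without the length correction. The medians were 0.63 and 0.31 without the long-depleted libraries. Antimicrobial peptides also bear nlp names, so the second list is not only neuronal and its falls are not read as a neuronal result. Of 16 genes of synapse and neuropeptide release 4 were higher and 1 lower (median 1.30), and 5 and 0 without those libraries (median 1.03). Neuron markers summed to 303 to 373 CPM in the mutant and 257 to 465 CPM in the control.

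Housekeeping groups were lower in the fit of all libraries and mostly not without the long-depleted ones. Of 82 tested cytosolic ribosomal protein genes 0 were higher and 53 lower (median -0.93). The rps-22 gene had 1680, 1554, 1560 and 1586 CPM in the mutant and 5525, 1848, 3643 and 3368 CPM in the control (-1.17 ± 0.35, adjusted p = 0.0316). Control replicate 2 lay near the mutant and the 3 long-depleted controls far above it. The call was lost without the long-depleted libraries (-0.26, adjusted p = 0.152), without control replicates 1 or 3 (adjusted p = 0.109 and 0.0642) and without any 1 mutant library (adjusted p = 0.0691 to 0.0743). Without the long-depleted libraries 1 ribosomal gene was higher and 0 were lower (median 0.01), although 51 were called lower with the length offsets (median -0.51). Nuclear genes of oxidative phosphorylation had 0 higher and 12 lower of 52 (median -0.74), and 0 and 0 without the long-depleted libraries. Mitochondrial ribosomal proteins had 1 higher and 14 lower of 69, and 1 and 1. Proteasome subunits had 0 higher and 12 lower of 33 (median -0.46), and 0 and 2.

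**Figure D4:**
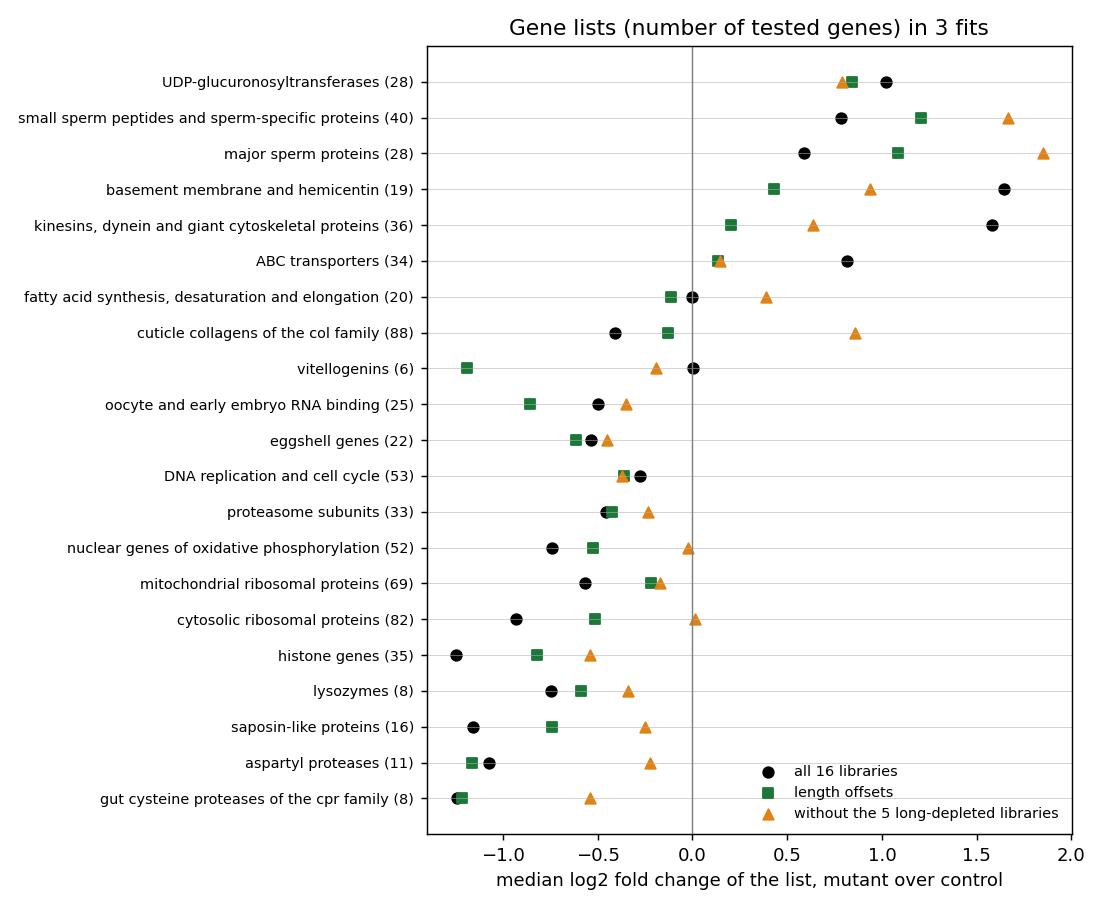
Median log2 fold change (mutant over control) of 21 gene lists in 3 fits, with the number of tested genes in brackets. The lists of UDP-glucuronosyltransferases, sperm, basement membrane, kinesins and ABC transporters stay above 0 in the 3 fits. Eggshell, oocyte, DNA replication, gut protease, proteasome, oxidative phosphorylation, mitochondrial ribosomal, histone, lysozyme and saposin-like lists stay below 0. The cytosolic ribosomal median is -0.93 in the fit of all libraries and 0.01 without the long-depleted libraries.

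Tested stress reporters were mostly not called. The endoplasmic reticulum chaperone gene hsp-4 had 34.4, 27.3, 27 and 23.4 CPM in the mutant and 25.2, 24.3, 21.2 and 27.5 CPM in the control (0.19 ± 0.27, adjusted p = 0.6). The mitochondrial chaperone gene hsp-6 changed by 0.23 ± 0.24 (adjusted p = 0.466). Of 11 tested heat shock and endoplasmic reticulum stress reporters 0 were higher and 1 lower. Low raw counts were found for hsp-16.2 (15 in the mutant and 3 in the control), hsp-70 (13 and 1) and sod-3 (37 and 4). These genes were named after their values were seen. Their counts are not scaled for library size, and no test is given for them.

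The naming rule took genes whose log2 CPM averaged 2 or more over the libraries, and its 15 largest rises ran from a log2 fold change of 3.80 to 5.09. AC3.5 had 60.9, 58.1, 49.4 and 45.3 CPM in the mutant and 2.30, 3.11, 1.76 and 3.37 CPM in the control (4.32 ± 0.60, adjusted p = 0.000695). C32E12.1 had 13.9, 12, 15.6 and 16.7 CPM in the mutant and 0, 1.25, 0 and 0.562 CPM in the control (4.72 ± 0.78). T22B7.7 had 39.2, 22.4, 14.8 and 30.9 CPM in the mutant and 0.459, 0.311, 1.32 and 4.49 CPM in the control. These 3 genes are 3422, 1780 and 1609 bp long, and their groups do not overlap. The ciliary rootlet gene che-10 (4.92 ± 0.97), the microtubule-binding CLASP gene cls-3 (4.44 ± 0.85) and the myosin light chain kinase gene mlck-1 (4.13 ± 0.85) also held, as did ZK354.3, K09F6.9 and Y50D4B.4. For cest-10, of the carboxylesterase family, the ratio was 23.6 (exact 95% counting interval 7.88 to 116) on 3 control counts, and for C41A3.2 it was 20.5 (6.85 to 101). T04F3.1, F21C10.7 and C33G8.2 lost the call in 1 fit each: the first 2 when the long-depleted libraries were left out (4.57, adjusted p = 0.0879, and 3.65, adjusted p = 0.163), C33G8.2 with length balance as a covariate (2.77, adjusted p = 0.0529). The genes cls-3 and K09F6.9 were at 2.85 and 2.57 without the long-depleted libraries.

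The 15 largest falls under the same limit ran from -7.34 to -3.15. Besides tts-1, a second non-coding RNA, Y53F4B.45, had 1.10, 1.81, 1.82 and 1.29 CPM in the mutant and 50.5, 14.3, 33.1 and 4.49 CPM in the control (-4.06 ± 0.59, adjusted p = 0.00102). T12D8.5 had 10.6, 10.8, 12 and 12.1 CPM in the mutant and 335, 86.0, 220 and 24.7 CPM in the control (-3.87 ± 0.54). F53A9.8 had 20.3, 28.9, 34.3 and 20.3 CPM in the mutant and 386, 161, 518 and 94.9 CPM in the control (-3.48 ± 0.42, adjusted p = 0.000338). In each of these the mutant libraries lay closer together than the controls, of which replicate 4 was lowest. The secreted protein gene scl-2 fell by 3.88 ± 0.53, and F45D3.4, C06B3.6, F40F12.9 and F37A8.5 fell by 3.74, 3.54, 4.02 and 3.45. ZC395.5 (-3.55 ± 0.74) lost the call with length balance as a covariate (-1.73, adjusted p = 0.0553). For F37A8.5 the value without the long-depleted libraries was -2.19. The transthyretin-related gene ttr-14, on the higher side and outside these 15, rose by 2.72 ± 0.67, and by 1.66 without the long-depleted libraries.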

How the data were processed

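RNA of synchronised whole worms was sequenced as 3′ digital mRNA libraries, single-end over 100 cycles, per the labels' protocols. The authors deposited raw gene counts for 16 libraries; reads passed through bcl2fastq, STAR 2.6.0a and HTSeq on ce11, per the submitters' processing notes. The annotation release and strand setting are not given in the sources used here, so counts of overlapping genes and near-identical copies are uncertain. Counts of a 3′ assay are not divided by length, and levels are compared only within a gene. Positions and transcript lengths came from Ensembl's WBcel235 annotation, the assembly of ce11.

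Genes were tested with edgeR 4.0.16 in R 4.3.3 (TMM factors, filterByExpr, robust quasi-likelihood fit, 1 mean per group over 16 libraries, 12 residual degrees of freedom) and Benjamini-Hochberg adjustment over 9787 genes. The threshold was an adjusted p of 0.05. Log2 fold changes are mutant over control, with their standard error (SE). Alternatives used DESeq2 1.42.0, limma 3.58.1, other scaling and filters, a replicate block, length corrections and left-out libraries. Counting intervals cover counting error only, and the floor ratio of mtl-1 takes its control counts as exact. Counts of this comparison were simulated with 200 changed genes among 9787. Without a length trend, 66% of 4-fold and 10% of 2-fold changes were recovered and 4 unchanged genes were called. With long transcripts depleted in 2 control libraries, the same fit recovered 60% and 14% and called 52 unchanged genes. With the length offsets it recovered 67% and 5% and called 2. The simulated loss was a straight trend on log2 length, the kind of trend that the offsets are built to remove. In the data 3 untreated controls and 5 libraries in all were long-depleted, and no trend was put into the other libraries of the simulation. It therefore cannot show how well the offsets work on these data.

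The members and gene lists were chosen with earlier results of these data known. Named were cua-1, the 15 largest rises and falls among called genes whose log2 CPM averaged 2 or more, with no overlap, the same call with the length offsets and the same direction without the long-depleted libraries, up to 4 leading members of each list, and fixed genes; others are marked as named after their values were seen. Replicate numbers did not pair the samples. No sequences are shown.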

Additional observations from a re-analysis of the deposited data

Results flagged for a closer look

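The check covered 246 sets of 4 libraries: the named genes with a test given other than tyr-1, length balance and the summed marker lists, in each group. Of these, 20 held a library set apart from the other 3 by more than the 95% limit of Dixon's test. By chance alone about 1 in 20 sets would do so. All values are normalised CPM. In the mutant, replicate 4 stood apart for fat-7 (124), asp-12 (39.6) and sams-1 (313), replicate 2 for cylc-1 (75.5), his-24 (28.7) and the summed oocyte markers (4910), and replicate 3 for the summed hypodermis markers (2130). In the control, replicate 4 stood apart for elo-5 (179), sams-1 (290), nhr-31 (10.7), C06B3.6 (10.1) and gst-4 (6.74). Control replicate 3 did so for tyr-4 (31.7), ZK354.3 (1.76) and ugt-41 (0.882), and control replicate 2 for cls-3 (1.56), cest-10 (0.934) and the summed neuron markers (257). Control replicate 1, with the lowest length balance, stood apart for chca-1 (30.8) and the summed pharynx markers (19.7). For elo-5, sams-1, nhr-31 and C06B3.6, control replicate 4 lay on the side of the mutant.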

How the results depend on the processing

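Of 113 named genes with a test given, tyr-1 not counted, 107 were called, and 89 kept the call in every alternative. Of 3162 values under alternatives 3067 kept direction and side of the threshold, 76 lost the call, 7 gained it and 12 turned sign. Many named genes were picked for steady calls or after their values were seen, so these counts do not describe all calls. Over all genes tested, 354 of 2141 calls held in every alternative. The 2141 calls became 849 with length balance as a covariate, 133 against a minimum log2 fold change of 1 and 1419 with the replicate block over 16 libraries. Leaving out 1 library gave 743 to 3809 calls. The length balance difference of 1.54 was 1.24 with other length limits (exact permutation p = 0.0857), 0.416 as a slope (exact permutation p = 0.0857), and 1.08 to 2.0 with 1 library left out, where 3 against 4 cannot go below 0.0571. Paired by replicate number (replicate block) it was 1.54 with an exact sign-flip p of 0.125, the smallest that 4 pairs allow. Signs turned for chca-1 (0.48 with the covariate, 0.10 with the offsets, 0.0091 with no filter, 0.26 without the long-depleted libraries, and -0.53 to 0.26 with 1 library left out), fat-7 (0.42 without the long-depleted libraries), hsp-4 (-0.18 with the covariate, -0.22 with the offsets), hsp-6 (-0.35 with the offsets) and unc-52 (-0.59 with the offsets). The cause was not tested. Same-numbered libraries of the 2 groups correlated at -0.22, -0.06, -0.02 and 0.06, so the numbers were not read as pairs. Shallow control libraries limit genes near 3 counts, and 3 of 4 controls are long-depleted, so sizes for long and short genes depend on the correction.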

Other observations

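Calls by chromosome are given as a description, with no test. In the fit of all libraries 13.1% of 1206 tested X chromosome genes were called higher and 6.47% lower (median log2 fold change 0.23), beside 9.39% and 12.5% of all genes. Among calls that held in every alternative the low share of falls on the X was not seen: 2.65% of its genes were higher and 1.58% lower, beside 2.49% and 1.12% of all genes. On chromosome III 6.40% were called higher and 13.7% lower, and 1.47% and 0.822% held. The held falls were 33 of 1715 tested genes on chromosome IV (1.92%) and 28 of 1663 on chromosome V (1.68%), and 0.442% and 0.480% on chromosomes I and II.

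Iron genes gave values not described above: of 9 tested genes of ferritins and iron handling 0 were called in either direction (median 0.60), and 3 were higher and 0 lower without the long-depleted libraries. Of 59 tested splicing genes 0 were higher and 15 lower, and 2 were higher and 2 lower without those libraries.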
